A study of Mus musculus with 12 samples.

Results

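Cytokine mRNA decay factors are proteins that bind short-lived inflammatory messages and start their destruction. Their own messages were examined here for N6-methyladenosine (m6A), the methyl mark that METTL3 places on adenosines of messenger RNA. The genes were Zfp36, Zfp36l1, Zfp36l2, Zc3h12a, Rc3h1 and Rc3h2, and every peak whose deposited gene name was among these names was taken. That gave 23 of 41153 peaks in the list from Mettl3 knockout (KO) cells and 22 of 36682 peaks in the list from wild-type (WT) cells. All 6 genes had peaks in both lists, as did 87.6% of the 14070 genes with a peak in either.

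The cells were BV2, an immortalised mouse microglial line, with genotype Mettl3 KO or WT, and the titles mark both groups as LPS, bacterial lipopolysaccharide. Each genotype had 3 libraries of RNA pulled down with an m6A antibody (IP) and 3 input libraries, 12 in all. The sources used here give neither the dose and duration of LPS nor whether the KO cells are 1 clone. Only 1 peak list per genotype was analysed, so no value below has a replicate spread and no difference was tested.

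Each peak value is the authors' log2 of IP over input, so 1 means a doubling of the fragment in the IP, and each adjusted p is theirs. Because the value is relative to input, it does not measure how much RNA a gene made. Depth per library is unknown here. Differences are KO minus WT.

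Messages for cytokines such as TNF and interleukin-6 carry AU-rich elements and stem-loops in their 3′ untranslated regions (UTRs). ZFP36 (tristetraprolin) and its relatives ZFP36L1 and ZFP36L2 bind the AU-rich elements and recruit the CCR4-NOT complex, which removes the poly(A) tail. Zc3h12a encodes Regnase-1, an endonuclease that cuts stem-loops, and Rc3h1 and Rc3h2 encode Roquin-1 and Roquin-2, which bind such stem-loops and also recruit CCR4-NOT. In macrophages LPS induces several of these factors, which then limit the cytokine response. m6A itself can shorten a message's life through the reader YTHDF2.

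Peaks reaching the annotated 5′ end of the gene were listed for 3 of the 6 genes, Rc3h1, Rc3h2 and Zfp36l1, in the KO and in the WT list alike. Over all genes the share with such a peak was 14.6% in the KO list and 14.1% in the WT list. The first bases of these messages are shown because the strongest Rc3h1 and Rc3h2 peaks begin there. m6A antibodies of this kind also recognise the dimethylated adenosine next to the cap of many messages, so the value of a peak at the gene start can hold both marks. The sequences come from RefSeq's table for GRCm38.p6, matched by symbol for 5 of 6 genes, and each is a 30-base stretch of the first 50 transcribed bases, 5′ to 3′. Capitals mark the consensus RRACH searched for here. It means A or G in the first and second places, then A and C, then A, C or T.
Rc3h1 (chr1:160906426-160906455, plus strand): ggaaggggacgaGGACAacgagcgacgggc
Rc3h2 (chr2:37422858-37422887, minus strand): tttgaggccctgAAACCgccgccgagctct
Zfp36l1 (chr12:80112964-80112993, minus strand): gggcgccgggagcaggcgtgtgGGACTcct

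The motif began at base 28 of Rc3h1, base 29 of Rc3h2 and base 43 of Zfp36l1, counted from 1 at the RefSeq start. The RefSeq start was the lists' own gene start for Rc3h2 and Zfp36l1 and lay 7 bases upstream of it for Rc3h1. The Zfp36 and Zc3h12a windows, over which neither list has a peak, held no match on the RNA strand. The Zfp36 start differed by 1025 bases between RefSeq and the lists, and that of Zc3h12a by 41 bases. Matches were common everywhere: 44.6% of all 32851 windows of 50 bases had 1 or more on the RNA strand, 44.9% on the other strand and 70.9% on either. Genes with a start peak in both lists were no richer in them, with 33.8% of 393 genes against 34.8% of 3640 genes without a start peak, among genes whose 2 start positions agreed to within 10 bases.

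**Figure D1:**
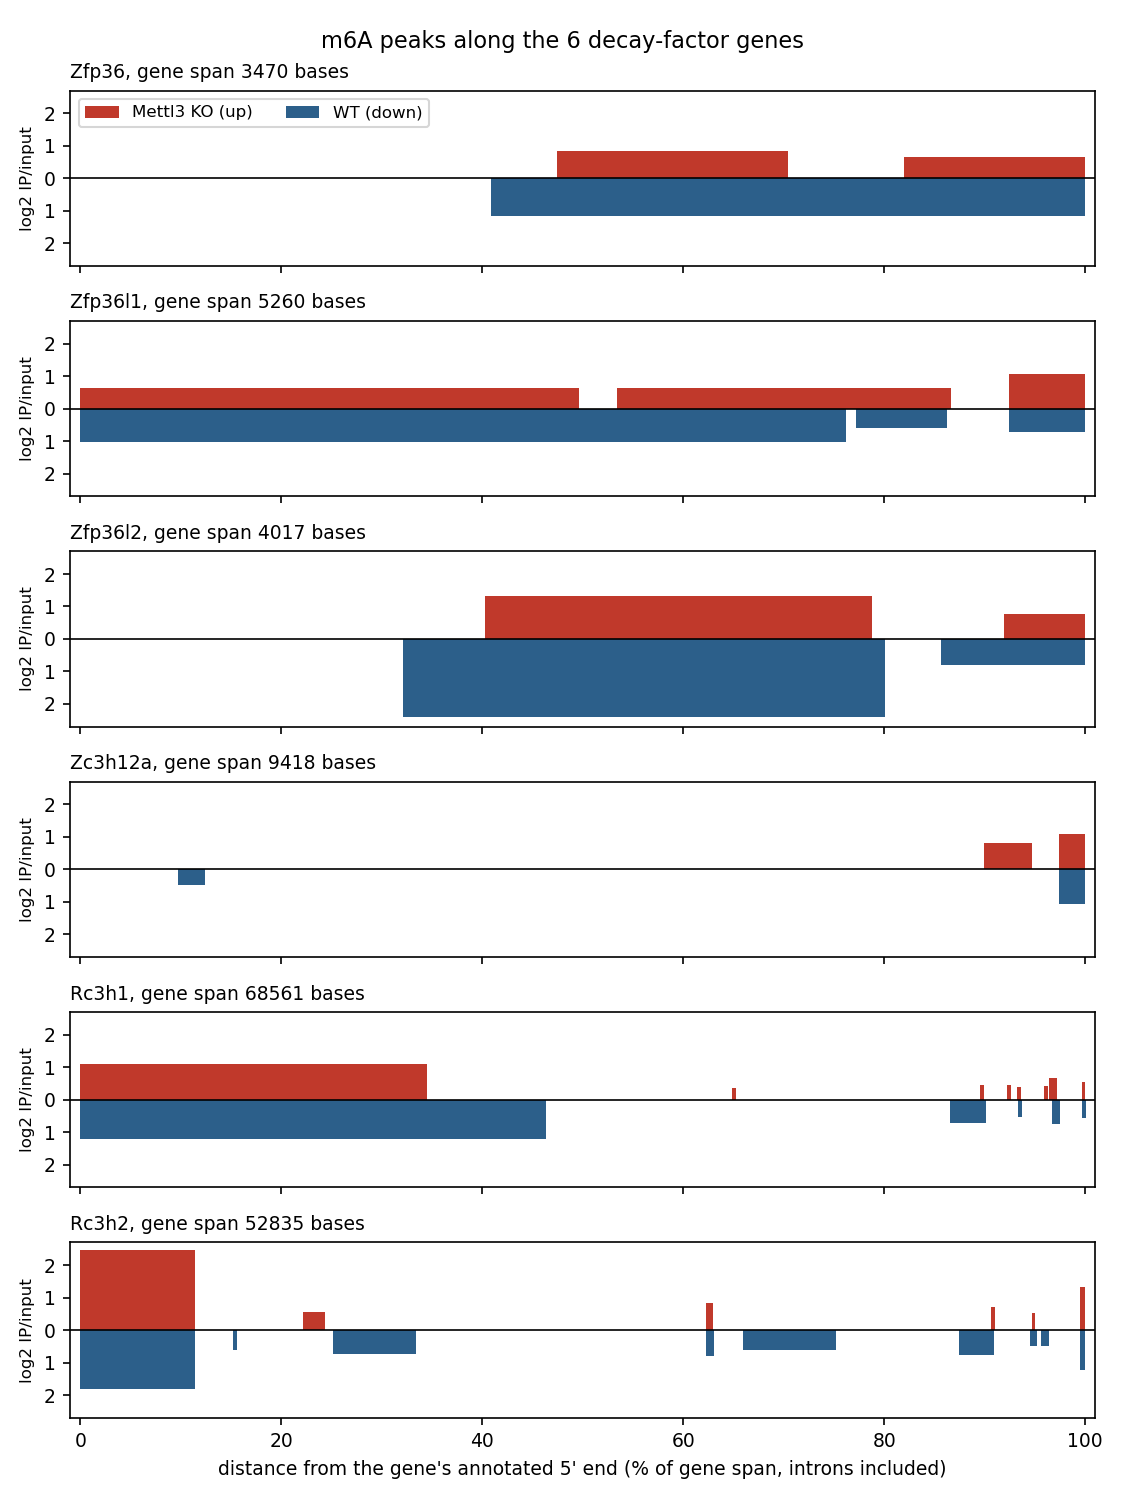
Peaks along each gene from its annotated 5′ end to its 3′ end, as a percentage of the gene's span with introns included. Bar height is log2 of IP over input, upwards for the KO list and downwards for the WT list, and very short peaks are drawn at a minimum width. All 6 genes end in a peak in both lists, and Rc3h1, Rc3h2 and Zfp36l1 also begin with one.

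Of the AU-rich element binders, Zfp36l2 carried the strongest WT peak of all 6 genes and the greatest loss in the KO list. Its main peak, annotated as 3′ UTR, stood at 1.33 (2.52-fold) in KO and 2.41 (5.32-fold) in WT, a difference of -1.08. Both entries were listed with an adjusted p of 0. The KO peak ran on the minus strand of chromosome 17 from 84184781 to 84186330, inside the WT peak from 84184731 to 84186655. The second Zfp36l2 peak, at the 3′ end of the gene, differed little, with 0.77 in KO and 0.79 in WT. The listed gap between KO and WT in Zfp36l2 lay in the middle of the gene and not at its end.

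Zfp36, the family member best known for restraining TNF, had 2 peaks in KO and 1 in WT. The KO peaks stood at 0.85 in coding exon (adjusted p = 3.87e-18) and 0.65 in 3′ UTR (adjusted p = 7.6e-12). The WT peak stood at 1.16 and was annotated as 3′ UTR, listed with an adjusted p of 0. On chromosome 7 the KO peaks ran from 28377809 to 28378608 and from 28376784 to 28377408, with 400 bases between them, and the WT peak ran without a break from 28376784 to 28378833. All bases under the KO peaks lay under the WT peak. The WT peak spanned 59.1% of the gene, introns included, against 41.1% for the KO peaks. Both KO values were below the WT value, and the strongest-peak difference was -0.31.

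Zfp36l1 had 3 peaks in each list, but the highest lay at different ends of the gene. In KO the highest was the peak at the 3′ end, at 1.06 (adjusted p = 6.11e-28), followed by 0.64 at the 5′ end and 0.62 between them. In WT the highest was the 5′ peak, at 1.03 (adjusted p = 8.47e-68), followed by 0.73 at the 3′ end and 0.61 between them. The 3′-end peak had the same coordinates in both lists, chromosome 12 from 80107754 to 80108153, and was higher in KO by 0.32. The KO 5′ peak spanned 2610 bases and was annotated as 5′ UTR, while the WT 5′ peak spanned 4010 bases and was annotated as 3′ UTR. The peaks between the ends were not the same stretch. Of the KO one, 68.6% lay under the WT 5′ peak and 27.1% under the WT peak between the ends. With introns counted as covered where a peak crosses them, peaks spanned nearly the whole gene in both, 90.5% in KO and 92.9% in WT. The strongest-peak difference of 0.03 thus set a 3′-end peak in KO against a 5′ peak in WT.

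Zc3h12a, the Regnase-1 gene, had 2 peaks in each list and shared 1 of them. The shared peak covered the last 250 bases of the gene, on the minus strand of chromosome 4 from 125118423 to 125118672. It stood at 1.09 in KO (adjusted p = 2.31e-05) and 1.05 in WT (adjusted p = 4.21e-19), so the fold was nearly equal while the listed significance was weaker in KO. The other KO peak lay next to it in the 3′ UTR at 0.82, and the other WT peak lay near the start of the gene in coding exon at 0.48. Neither had a partner in the other list. That WT peak was among the weakest in its list, higher than 4.94% of WT peaks.

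Rc3h2, the Roquin-2 gene, had 6 peaks in KO and 9 in WT, and it held the strongest KO peak of the 6 genes. This peak covers the start of the gene, on the minus strand of chromosome 2 from 37416860 to 37422903, with the same coordinates in both lists and a 5′ UTR annotation. It stood at 2.47 (5.53-fold, adjusted p = 3.8e-10) in KO and 1.80 (3.48-fold, adjusted p = 1.01e-06) in WT. The 6044 bases it spans include intron, so its exact place within the transcript is not resolved. The difference of 0.67 was above those of 98.1% of the 12320 genes that had peaks in both lists. Among 1279 genes whose start carried a peak in KO and in WT, 22.4% were higher in KO, and 98.4% had a difference below that of Rc3h2.

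The other Rc3h2 peaks fell into a matched and an unmatched set. The peak over the last 300 bases had the same coordinates in both lists and stood at 1.34 in KO and 1.22 in WT. A coding-exon peak at nearly the same place stood at 0.83 in KO and 0.81 in WT. The 2 other matched 3′ UTR peaks stood at 0.70 and 0.54 in KO, against 0.75 and 0.49 in WT. They overlapped but spanned 225 and 150 bases in KO against 1863 and 350 bases in WT, so their values cover unlike stretches. In KO 1 peak had no partner, at 0.55, and in WT 4 had none, at 0.50 to 0.72. Peaks spanned 15.6% of the gene in KO and 35.4% in WT, introns included.

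Rc3h1, the Roquin-1 gene, had 8 peaks in KO and 5 in WT. The strongest again began at the gene start, at 1.09 in KO (adjusted p = 2.88e-11) and 1.21 in WT (adjusted p = 8.79e-23), on chromosome 1 from 160906418 to 160930081 in KO and to 160938223 in WT. All other Rc3h1 peaks were annotated as 3′ UTR, 7 in KO and 4 in WT. They ranged from 0.35 to 0.66 in KO and from 0.54 to 0.74 in WT. Every WT peak had a KO partner, and all 5 overlapping pairs had the lower value in KO, by 0.03 to 0.28. The pair that differed by 0.28 set a KO peak of 275 bases against a WT peak of 2433 bases. The 3 KO peaks without a partner stood at 0.35, 0.43 and 0.45 (adjusted p = 0.0143, 0.0137 and 0.0125). They were weak, higher than 1.36%, 7.69% and 12.2% of KO peaks, and the higher KO count of this gene rests on them. The peaks of Rc3h1 name 3 different transcripts, so a 3′ UTR label here does not mean the end of the longest message.

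**Figure D2:**
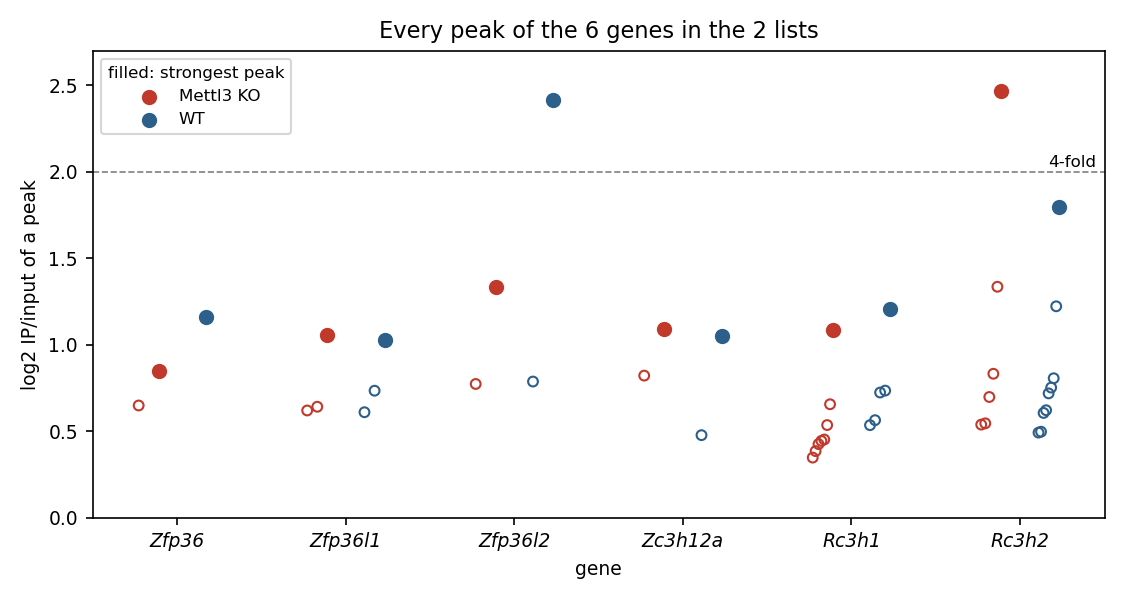
Log2 of IP over input for every peak of the 6 genes, KO left of WT for each gene, with the strongest peak of each list filled and the dashed line at 4-fold. Rc3h2 in KO, at 2.47, and Zfp36l2 in WT, at 2.41, are the points above 4-fold.

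Ordered by the strongest peak, the KO list ran Rc3h2 (2.47), Zfp36l2 (1.33), Zc3h12a (1.09), Rc3h1 (1.09), Zfp36l1 (1.06) and Zfp36 (0.85). The WT list ran Zfp36l2 (2.41), Rc3h2 (1.80), Rc3h1 (1.21), Zfp36 (1.16), Zc3h12a (1.05) and Zfp36l1 (1.03). With no replicate spread, no place in either order can be read as a difference between genes, least of all among the 4 genes between 0.85 and 1.21. Of the member peaks, 1 of 23 in KO and 1 of 22 in WT reached 4-fold, against 3.93% of all KO peaks and 11.7% of all WT peaks.

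The strongest value was lower in KO for 3 of 6 genes, namely Zfp36l2, Zfp36 and Rc3h1, where 73.4% of all 12320 genes were lower. It was higher in KO for Rc3h2, Zc3h12a and Zfp36l1, against 26.6% of all genes. The differences of Zc3h12a (0.04) and Zfp36l1 (0.03) were close to 0, and that of Zfp36l1 turned to -0.018 when all its peaks were averaged and to -0.30 with the mean weighted by span. By either mean 4 of 6 members were lower in KO, against 77.2% of all genes by the plain mean and 77.9% by the weighted one. The differences of Zfp36l1, Zc3h12a and Rc3h1 were within 0.2 of 0, as were those of 36.1% of all genes. The median over the 6 genes was -0.05, and over all genes -0.25.

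The 2 genes that stood apart did so in opposite directions. Zfp36l2 was 1 of 6 members lower in KO by 1 or more, a class that held 9.54% of all genes, and Rc3h2 was 1 of 6 members higher by 0.5 or more, a class of 2.90%. Strong peaks were lower in KO in general: for the 3243 genes whose KO and WT values averaged 1.5 to 2.5, the median difference was -0.68, with an interquartile range of -0.94 to -0.38. Both genes belong to that range of levels. Of these genes 15.2% had a difference below that of Zfp36l2, 97.6% had one below that of Rc3h2, and 11.6% were higher in KO.

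**Figure D3:**
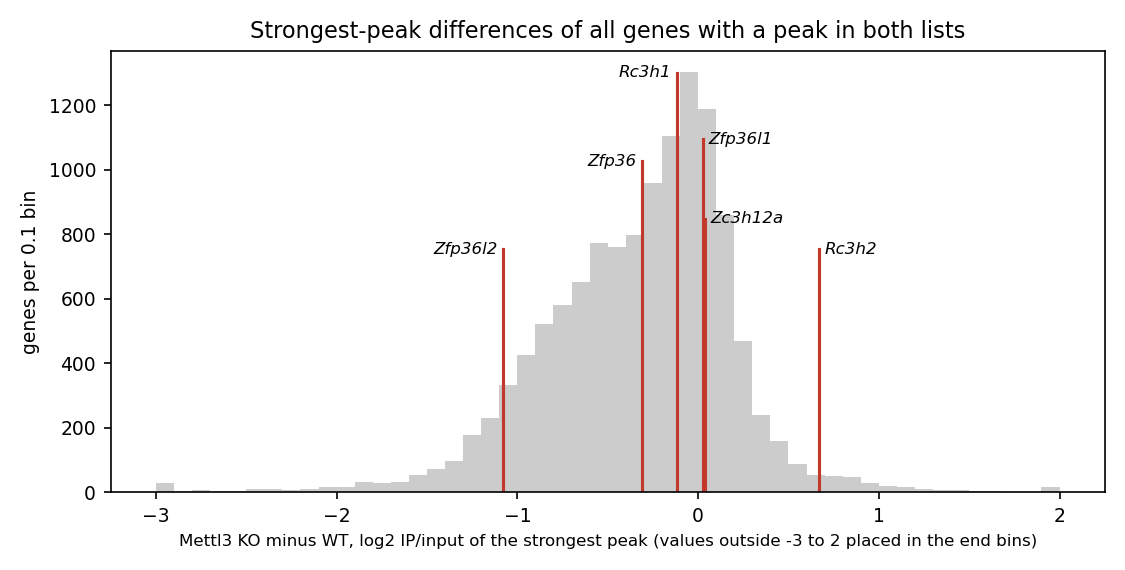
KO minus WT difference in the strongest peak's log2 of IP over input for 12320 genes that had peaks in both lists, as a histogram in bins of 0.1, with the 6 decay factors marked by lines whose heights carry no value. Zfp36l2 lies on the low side at -1.08 and Rc3h2 on the high side at 0.67, with the other genes between -0.31 and 0.04.

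All 6 genes had a peak reaching the annotated 3′ end in both lists, against 52.2% of genes in the KO list and 49.9% in the WT list. These values were 1.34 in KO and 1.22 in WT for Rc3h2, 1.09 in KO and 1.05 in WT for Zc3h12a, and 1.06 in KO and 0.73 in WT for Zfp36l1. They were 0.77 in KO and 0.79 in WT for Zfp36l2, 0.54 in KO and 0.56 in WT for Rc3h1, and 0.65 in KO and 1.16 in WT for Zfp36, whose WT peak also covers coding sequence. Thus 3 of 6 were higher in KO, against 37.8% of the 5949 genes with such a peak in both lists, and 4 of 6 were within 0.2, against 52.7% of those genes. The median difference was 0.01 for the 6 genes and -0.08 for all genes of this kind.

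Peaks with the same coordinates in both lists compare the same stretch of genome. There were 4, the 5′ and 3′ peaks of Rc3h2 and the 3′ peaks of Zc3h12a and Zfp36l1. All 4 were higher in KO, by 0.67, 0.11, 0.04 and 0.32, where 38.1% of all 2916 such pairs were. The median was 0.22 for these 4 pairs and -0.06 for all pairs. Of all pairs 98.9% had a difference below that of the Rc3h2 5′ peak, 95.5% below that of the Zfp36l1 peak, 82.0% below that of the Rc3h2 3′ peak and 70.2% below that of the Zc3h12a peak. Pairs of the same gene share their transcript and are not independent, and the set was chosen after the peaks were seen.

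**Figure D4:**
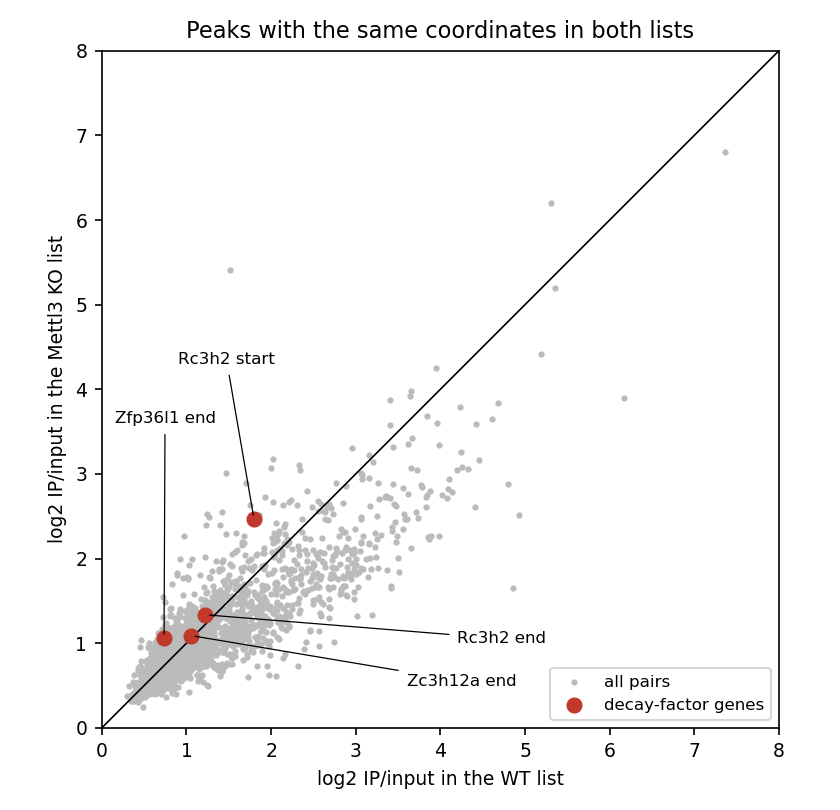
Log2 of IP over input in the KO list (vertical axis) against the WT list (horizontal axis) for the 2916 peaks with the same coordinates and strand in both, with the line of equal values. The 4 pairs from decay-factor genes, in red, all lie above the line, with the Rc3h2 start peak, at 2.47 in KO and 1.80 in WT, farthest from it.

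Overlap of at least 1 base on the same strand was found for 18 of 23 KO peaks and 17 of 22 WT peaks, against 72.9% of all KO peaks and 77.2% of all WT peaks. These made 19 overlapping pairs, of which 7 were higher in KO, against 29.2% of all 32614 pairs. Every overlapping pair of Zfp36, Zfp36l2 and Rc3h1 was lower in KO. Peaks without a partner stood at 0.35 to 0.82 in KO and 0.48 to 0.72 in WT. By annotation, 17 of the KO peaks and 16 of the WT peaks were in 3′ UTRs, with 3 in coding exons and 3 in 5′ UTRs in each list. The 3′ UTR class held 51.4% of all KO peaks and 53.0% of all WT peaks, coding exons held 25.1% in KO and 21.1% in WT, and 5′ UTRs held 11.9% in each.

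Genes that work with these factors were listed for comparison, 70 in all, and 58 had a peak in both lists. Of these, 42 had the lower strongest value in KO and 16 the higher, with a median difference of -0.19. Both values were close to the background, since 73.4% of all genes were lower in KO and their median was -0.25, and the counts for each group of these genes stand against the same values. Most of the genes named had the strongest WT peaks of their list, a choice that favours a lower KO value. Of 18 genes for deadenylases and their partner proteins, 14 were lower in KO (median -0.16). The adaptor Tob1, which bridges CCR4-NOT to bound messages, stood at 1.72 in KO and 2.47 in WT. The related adaptor Btg1 stood at 1.02 in KO and 1.68 in WT, and Pan3, partner of the PAN2 deadenylase, at 1.62 in KO and 2.00 in WT. Of 12 decapping, exonuclease and surveillance genes, 10 were lower in KO, and the median of -0.20 was nearer to 0 than the -0.25 of all genes. Among them the decapping enzyme Dcp2 stood at 1.36 in KO and 2.33 in WT, its activator Dcp1a at 2.06 in KO and 2.85 in WT, and the helicase Ddx6 at 2.25 in KO and 3.33 in WT.

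Of 10 other binders of AU-rich elements and stem-loops, 8 had a peak, all of them in both lists (87.6% of all genes with a peak). Of these 8 genes, 7 were lower in KO (73.4% of all genes), with a median of -0.44. The exception, Hnrnpd, which encodes the AU-rich element binder AUF1, stood at 1.02 in KO and 0.79 in WT. Zc3h12c, a relative of Zc3h12a, stood at 1.65 in KO and 2.45 in WT, whereas Zc3h12b and Zc3h12d had no listed peak. Arid5a, which protects Il6 messages, stood at 1.81 in KO and 2.60 in WT, and Tia1, a translational repressor, at 1.51 in KO and 2.11 in WT. Of the 9 genes for kinases and other regulators of the decay factors, 6 were lower in KO (median -0.20). They included Mapk14, the p38 kinase upstream of ZFP36 phosphorylation, at 1.22 in KO and 2.19 in WT, and the p38 phosphatase gene Dusp1 at 1.46 in KO and 2.04 in WT. Ikbkb, whose kinase marks Regnase-1 for degradation, was higher in KO, at 2.29 in KO and 1.51 in WT.

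Of 21 known target messages, 11 had peaks in both lists, 5 lower and 6 higher in KO, with a median of 0.07. Il1b (1.55 in KO and 0.90 in WT) and Il23a (1.60 in KO and 1.12 in WT) were higher in KO. So were Ptgs2 (1.42 in KO and 0.86 in WT) and Cxcl2 (1.24 in KO and 0.94 in WT). The last of these 6 were Ccl3 (1.07 in KO and 0.80 in WT) and Nfkbiz (0.83 in KO and 0.76 in WT). Of the 5 lower ones, Lif stood at 2.11 in KO and 2.47 in WT, and Ier3 at 1.21 in KO and 1.46 in WT. Tnf stood at 0.95 in KO and 1.19 in WT. Nfkbid stood at 0.84 in KO and 1.02 in WT, and Ccl2 at 0.82 in KO and 0.91 in WT. Tnfrsf4 had a peak in KO only (1.08), and Csf2 (1.46), Csf3 (1.20) and Il6 (0.99) had peaks in WT only. Of all 14070 genes with a peak, 13027 had one in KO, 13363 in WT and 87.6% in both. Input RNA of the target genes was not analysed, so a missing peak is not by itself a loss of the mark. No peak was listed for Il10, Il12b, Cxcl1, Icos, Ifng or Il2.

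The related gene nearest to each decay factor was found by the distance over 2 values, the strongest KO and strongest WT log2. For Zfp36 it was Mapkapk3, a kinase activated by p38, at a distance of 0.054. For Zfp36l1 (0.056) and Zc3h12a (0.084) it was Cnot1, the scaffold of CCR4-NOT, and for Rc3h1 Lsm1 (0.031), a subunit of the ring that promotes decapping. For Zfp36l2 it was Dcp2 (0.091), and for Rc3h2 Ikbkb (0.34). Such nearness was common for most: 319 to 396 of all genes lay within 0.1 of Zfp36, Zfp36l1, Zc3h12a and Rc3h1. There were 63 such genes for Zfp36l2 and 5 for Rc3h2.

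For the series as a whole, Mettl3 had 6 peaks in KO and 3 in WT, with a strongest value of 2.07 in KO and 1.57 in WT. That is an enrichment and does not check the knockout. All 5 microglial or macrophage marker genes looked up (Aif1, Itgam, Csf1r, Cd68 and Spi1) had peaks in both lists. So did 87.6% of all genes with a peak in either. The 4 markers of astrocytes, neurons and oligodendrocyte-lineage cells (Gfap, Rbfox3, Snap25 and Olig2) had none. A listed peak does not measure expression, so these counts do not check the identity of the cells.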

How the data were processed

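The 12 libraries fall into 4 groups by their titles, IP and input of Mettl3 KO and WT cells, with 3 libraries each. Per the labels' protocols, polyadenylated RNA was fragmented and precipitated with an m6A antibody; those protocols name neuroblastoma cells as the source of RNA, where the sample labels name BV2. The tools edgeR, StringTie, HOMER, HISAT2, FastQC and fastp appear in the submitters' processing notes, without versions or roles. No source used here gives the peak caller, the genome build or any pooling of replicates. Per the file headers, the authors deposited for each peak a log2 of IP over input, a p-value with an adjusted p-value, a length, an annotated region and a gene.

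Start positions were raised by 1, since the deposited ones count from 0, and positions are otherwise as deposited. A gene's value is its strongest peak. Genes and peaks were counted with Python 3.11.15, pandas 2.3.3 and bedtools 2.31.1, and figures were drawn with matplotlib 3.10.9. The gene differences were checked on a copy of the WT list with known shifts added. The overlaps were checked against a direct count for part of the real peaks. Other steps had no such check. No test compares the genotypes. The 6 genes, the related gene lists and the settings were chosen with earlier results of these data known. Named related genes are the 3 with the strongest WT peak in each list and those with a peak in 1 list only. The nearest to each decay factor and genes without any peak are also named. Hnrnpd and the remaining target genes with peaks in both lists were picked once their values had been seen. The alternatives tried were an adjusted p of at most 0.001, 4-fold peaks, peaks of at most 1000 bases, the mean over peaks, centring on all genes, peaks inside the gene, a 50% reciprocal overlap and strand ignored. Added after seeing the data were a span-weighted mean, identical peaks and 3′-end peaks. Peak sequences and input expression were not analysed here.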

Additional observations from a re-analysis of the deposited data

How the results depend on the processing

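No paired analysis was possible because each genotype has 1 peak list and no per-library value. A KO minus WT difference is given as moved where it changed by more than 1.5 times, and the cause was not tested unless stated. For Zfp36l2 the difference was -0.014 among peaks of at most 1000 bases and among 3′-end peaks, which leave out its main peak by construction, and -0.55 with the mean over peaks. For Rc3h2 it was 0.11 under the first and second of these settings, which leave out its start peak, and 0.23 with the mean. For Zfp36l1 it was 0.32 among short, identical or 3′-end peaks and 0.28 after centring, and it turned to -0.018 with the mean and -0.30 with the span-weighted mean. For Zc3h12a it was 0.19 with the mean, 0.15 with the span-weighted mean and 0.28 after centring. For Rc3h1 it was -0.21 with the mean and -0.028 among 3′-end peaks, and turned to 0.13 after centring. For Zfp36 it was -0.062 after centring and -0.51 among 3′-end peaks. With 50% of both peaks overlapping, 11 KO and 11 WT peaks were shared, and with 4-fold peaks 0 were, because 1 remained in each list, on different genes. The 4-fold setting gave no difference for any member, and short peaks gave none for Zfp36 and identical peaks none for Zfp36, Zfp36l2 and Rc3h1. The remaining 31 values, the related-gene counts included, kept their direction within 1.5 times. Among short peaks, 30 of 51 related genes were lower in KO, against 58.2% of all 9360 genes with such peaks in both lists. Their median difference there was -0.038 (main setting -0.19), and that of all genes was -0.054. The number lower in KO was 43 of 58 with the adjusted p limited to 0.001. With the mean it was 44 of 58, against 77.2% of all genes. Weak peaks are limited by an unknown depth.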
